A study of Mus musculus with 16 samples.

Results

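The cytosolic ribosomal protein (RP) genes encode the proteins that, with the ribosomal RNAs, build the ribosome of the cytoplasm. They were taken by name and annotation from the count table of mouse aortas: protein-coding genes called Rpl or Rps and a number, with or without a, x, y or l, and Rplp0, Rplp1, Rplp2 and Rpsa. This gave 81 genes of 54532 listed, 50 of the large subunit and 31 of the small subunit. The aortas came from male C57BL/6J mice that were 12 weeks old at surgery, 4 mice per group and 1 RNA-seq library per mouse, 16 libraries in all. In 5/6 nephrectomy (5/6 Nx), a model of CKD, the poles of the left kidney were ligated and the right kidney was removed a week later. The nephrectomized mice then received 1 of 3 diets for 30 days, as the labels state: 5/6 Nx-HPi-Lp with phosphorus at 2% and protein at 2.5%, 5/6 Nx-HPi-Hp with phosphorus at 2% and protein at 18%, or 5/6 Nx-LPi-Lp with phosphorus at 0.3% and protein at 2.5%. The Sham mice were operated on without ligation or removal, and their diet was that of the 5/6 Nx-HPi-Lp group, so Sham and 5/6 Nx-HPi-Lp differed in surgery, whereas the contrasts of Sham with the other 2 groups mixed surgery and diet.

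RP genes are transcribed in every cell and are among its most abundant mRNAs. Their transcripts start with a C followed by a run of pyrimidines, the 5′ terminal oligopyrimidine (TOP) motif, through which mTOR signaling controls their translation. The assembled subunits need about equal numbers of each RP, so the members are usually described as a set whose mRNAs are held in proportion. RNA-seq measures the mRNA level and not its translation.

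The start sites of 61 of the 81 genes were found in the RefSeq promoter table (GRCm38.p6), and the other 20, among them Rpl23a, Rpl29, Rpl30, Rpl36, Rps27a and Rplp1, had no entry there. A C and at least 4 further C or T bases on the transcribed strand stood exactly at the annotated start in 12 of the 61 (19.7%), against 2.49% of 27025 promoters of the table. Within 5 bases of the start, such a tract was found in 27 of the 61 (44.3%), against 18.5% of all. The 30 bases from 10 before the start are given here on the transcribed strand for genes that the comparisons turn on, with the tract in capitals. The first 5 hold a tract.
Rpl15, chr14:18270967-18270996, minus strand: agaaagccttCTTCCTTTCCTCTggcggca
Rpl7a, chr2:26910797-26910826, plus strand: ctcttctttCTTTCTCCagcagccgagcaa
Rps27, chr3:90213629-90213658, minus strand: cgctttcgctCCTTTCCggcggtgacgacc
Rps6, chr4:86857348-86857377, minus strand: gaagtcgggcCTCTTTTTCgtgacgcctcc
Rpl14, chr9:120571507-120571536, plus strand: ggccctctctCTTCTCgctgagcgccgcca
The other 4, from genes with values above Sham in at least 1 group, hold none within 5 bases of the start, which says only that these letters are not there.
Rpsa, chr9:120127756-120127785, plus strand: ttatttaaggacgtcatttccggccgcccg
Rplp0, chr5:115559457-115559486, plus strand: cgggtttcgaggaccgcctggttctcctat
Rps15, chr10:80292421-80292450, plus strand: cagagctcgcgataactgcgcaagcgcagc
Rpl41, chr10:128549149-128549178, minus strand: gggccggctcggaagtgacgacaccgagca

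The RP mRNAs spanned a wide range of levels in the aorta. FPKM, the authors' values per length of the gene, allow levels to be compared between genes. Over the 16 libraries 64 of the 81 genes had a mean above 100 FPKM, 10 lay from 10 to 100 and 7 lay under 10, with a median of 216 FPKM. The highest means were 2426 FPKM for Rplp1 (a P1 protein of the ribosomal stalk), 1616 for Rps15 (small subunit), 1206 for Rpl36 (large subunit), 914 for Rpl41 (the shortest RP) and 659 for Rplp0, the base of the stalk. The top 5 genes by counts held 16.5% of all RP counts. The 7 genes under 10 FPKM were Rpl13a at 9.71, Rpl24 at 2.20, Rpl3l at 2.12, Rps10 at 1.61, Rpl36al at 0.364, Rpl39l at 0.201 and Rpl10l at 0.00255. Rpl13a, Rpl24 and Rps10 encode core components of every ribosome, and their low rows had values from other rows beside them: 35.4%, 47.0% and 20.6% of their exonic bases were shared with another annotated gene that itself had 0 counts, and the pseudogenes named after Rps10 held 97.3% of the counts of Rps10 and these pseudogenes together. How reads that match several rows were counted is not given in the sources used here, so the levels of these genes are uncertain. The order of levels was similar in the 4 groups: across 77 genes with at least 10 counts in every library, Spearman's rho of the group means with Sham was 0.975 in 5/6 Nx-HPi-Lp, 0.964 in 5/6 Nx-HPi-Hp and 0.975 in 5/6 Nx-LPi-Lp aortas, a description across genes that share their libraries.

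The share of all counts that fell on RP genes was lower in every 5/6 Nx group than in Sham. It was 4.67, 4.21, 4.38 and 4.37% in the Sham mice (4.41% ± 0.19, SD, n = 4). The 5/6 Nx-HPi-Lp aortas had 3.26, 3.97, 3.20 and 3.91% (3.59% ± 0.41). The 5/6 Nx-HPi-Hp aortas had 3.88, 2.89, 2.90 and 3.98% (3.41% ± 0.60), and the 5/6 Nx-LPi-Lp aortas 2.79, 3.85, 3.38 and 3.43% (3.36% ± 0.43). No 5/6 Nx library reached the lowest Sham library, and the nephrectomized groups overlapped one another. Counts on the mitochondrially encoded genes moved in the opposite direction: they took 4.18 to 6.34% of the counts in Sham and 9.50 to 29.0% in the 5/6 Nx mice. With those counts left out, the RP share was 4.65% ± 0.20 in Sham, 4.68% ± 0.36 in 5/6 Nx-HPi-Lp, 4.24% ± 0.34 in 5/6 Nx-HPi-Hp and 4.09% ± 0.63 in 5/6 Nx-LPi-Lp, and every group overlapped Sham. Counts of the large-subunit genes over those of the small-subunit genes were 1.44 ± 0.015 in Sham, 1.39 ± 0.032 in 5/6 Nx-HPi-Lp, 1.48 ± 0.037 in 5/6 Nx-HPi-Hp and 1.51 ± 0.019 in 5/6 Nx-LPi-Lp aortas. On this ratio the 5/6 Nx-LPi-Lp aortas (1.49 to 1.54) did not overlap the Sham (1.43 to 1.47) or the 5/6 Nx-HPi-Lp aortas (1.36 to 1.43). These shares and ratios are sums over the chosen genes and were given no test.

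**Figure D1:**
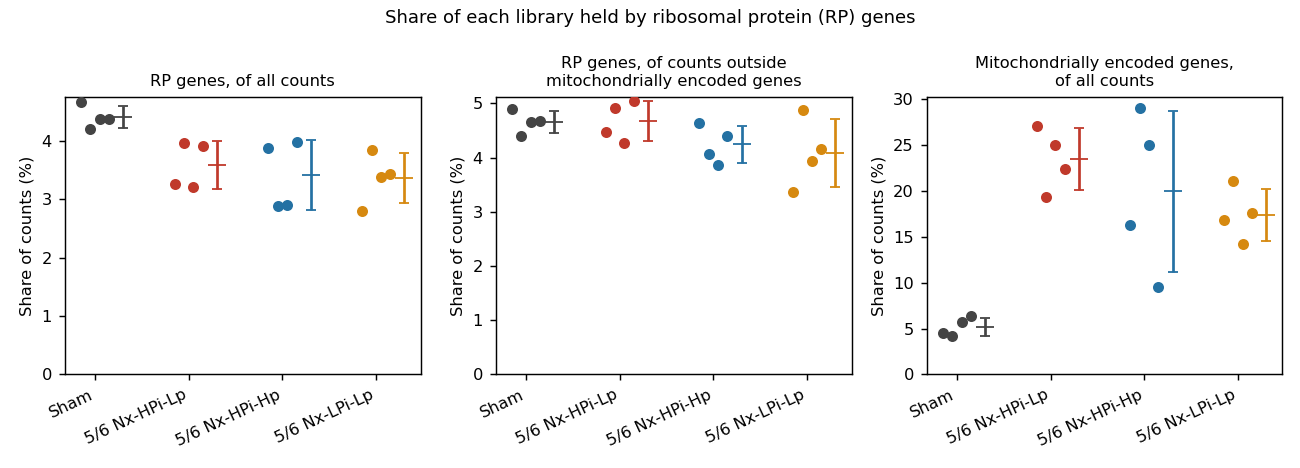
Share of counts (percent, vertical axis) on RP genes among all counts, on RP genes outside mitochondrially encoded genes, and on the mitochondrially encoded genes, by group; points are mice and bars are mean ± SD. The RP share of all counts lies at 4.21 to 4.67% in Sham and below 4% in every 5/6 Nx mouse, and the groups overlap once mitochondrially encoded counts are left out.

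Aortas are mixtures of cells, and in bulk samples fewer cells of a type and less RNA per cell cannot be told apart. The summed level of 6 smooth muscle markers was 21665 to 25737 CPM (counts relative to library size, after TMM scaling of the 16 libraries) in Sham, 2223 to 5034 in 5/6 Nx-HPi-Lp, 6541 to 23205 in 5/6 Nx-HPi-Hp and 7597 to 17667 in 5/6 Nx-LPi-Lp aortas. The 4 adipocyte markers summed to 474 to 1207, 2808 to 5086, 1034 to 6274 and 2487 to 6880 CPM in the same order, and none of these 10 markers was at 0 in a group. Fibroblast markers summed to 1393 to 2222 CPM in Sham, 2532 to 11230 in 5/6 Nx-HPi-Lp, 666 to 2172 in 5/6 Nx-HPi-Hp and 742 to 1049 in 5/6 Nx-LPi-Lp aortas. Macrophage markers summed to 60.3 to 80.9, 188 to 497, 78.8 to 151 and 65.1 to 89.7 CPM in the same order. Both lists were above Sham without overlap only in 5/6 Nx-HPi-Lp aortas, where the fibroblast markers Dcn and Pdgfra overlapped Sham one by one. The part of these cell types in the RP values was not tested. Gene by gene, pairs of groups were compared with the quasi-likelihood test of edgeR, and p-values were adjusted by the Benjamini-Hochberg method over all genes tested. An adjusted p up to 0.05 made a call, and a called gene was a DEG if its log2 fold change was also at least 1 in size. These p-values set the difference between 2 groups against the spread between mice within groups.

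The 5/6 Nx-HPi-Lp aortas had lower levels of many RP mRNAs than Sham, each by less than 2-fold. Of 78 RP genes that passed the filter on low counts, 29 (37.2%) fell and 1, Rpsa, rose, against 20.2% of all 16513 genes tested that fell and 22.7% that rose. None was a DEG, against 22.2% of all genes. Rpl39l, Rpl3l and Rpl10l did not pass the filter. The median log2 fold change of the 78 was -0.21, against -0.00 over all genes tested, and 62 of the 78 were below 0. Fold changes ran from -0.97 to 0.44 with an SD of 0.27, against an SD of 1.28 over all genes. For this SD and for the DEGs, genes matched to the RP genes in level were not compared. In 29 of the 30 called genes the 4 mice of one group did not overlap those of the other; the exception was Rps29. Among all 7089 genes called in this comparison, 87.5% did not overlap.

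Rpl7a, a large-subunit protein, had the lowest fold change in this comparison. Its row (ENSMUSG00000062647, chromosome 2, 26910764 to 26913318, mm10) had 153, 141, 210 and 137 CPM in Sham and 85.0, 61.9, 91.7 and 75.4 CPM in 5/6 Nx-HPi-Lp aortas. All 4 5/6 Nx-HPi-Lp aortas were below all Sham mice, with a log2 fold change of -0.97 (SE 0.17, adjusted p = 0.00135, edgeR). The pseudogenes named after Rpl7a held 23.1% of the counts of gene and pseudogenes together, and with them added the fold change was -0.74 (adjusted p = 0.00117).

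Rpl23a, a large-subunit protein near the exit of the nascent chain, was at 282, 257, 266 and 244 CPM in Sham and at 150, 170, 116 and 162 CPM in 5/6 Nx-HPi-Lp aortas. The groups were far apart (log2 fold change -0.76, SE 0.13, adjusted p = 0.00136, edgeR). Rpl10, the X-linked protein that joins the large subunit late in its assembly, had 1108, 1010, 994 and 937 CPM in Sham and 609, 629, 599 and 621 CPM in 5/6 Nx-HPi-Lp aortas. The 5/6 Nx-HPi-Lp values lay close together and far below Sham, and the log2 fold change was -0.67 (SE 0.10, adjusted p = 0.000704). Rpl14 and Rpl31, also of the large subunit, did not overlap Sham either: Rpl14 fell from 624 to 640 CPM in Sham to 399 to 434 CPM (log2 fold change -0.55, SE 0.09, adjusted p = 0.00108), and Rpl31 from 528 to 552 CPM to 318 to 379 CPM (log2 fold change -0.57, SE 0.10, adjusted p = 0.00138).

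Members with known roles outside the core were also read. Rps6, the small-subunit protein phosphorylated by the S6 kinases, was at 829, 775, 731 and 729 CPM in Sham and 555, 606, 503 and 605 CPM in 5/6 Nx-HPi-Lp aortas. The groups did not overlap (log2 fold change -0.38, SE 0.11, adjusted p = 0.0189). Rpl5 and Rpl11 carry the 5S rRNA and bind MDM2 outside the ribosome. Rpl5 fell, with a log2 fold change of -0.31 (adjusted p = 0.0442), while Rpl11 had 449 to 524 CPM in Sham and 394 to 476 CPM in 5/6 Nx-HPi-Lp aortas, which overlapped (log2 fold change -0.08, adjusted p = 0.559). Among the other genes that are mutated in Diamond-Blackfan anemia, Rps26 (-0.30) and Rpl35a (-0.39) fell, and Rps19 did not pass the test at 0.33 (adjusted p = 0.0750).

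Rpsa, the small-subunit protein that is also known as the laminin receptor, was the 1 member that rose. It had 1247, 1116, 1190 and 1170 CPM in Sham and 1270, 1765, 1421 and 1708 CPM in 5/6 Nx-HPi-Lp aortas (log2 fold change 0.44, SE 0.13, adjusted p = 0.0238, edgeR). The lowest 5/6 Nx-HPi-Lp mouse exceeded the highest Sham mouse by little. Of the stalk proteins, Rplp0 had a log2 fold change of 0.31 (adjusted p = 0.0720), Rplp1 of 0.14 (adjusted p = 0.450) and Rplp2 of 0.35 (adjusted p = 0.0878), and none passed.

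Single libraries moved these counts, and the shares of all genes called in these other fits are not given here. Without Sham replicate 1, 15 RP genes fell in 5/6 Nx-HPi-Lp aortas against Sham, without Sham replicate 3, Sham replicate 4 or 5/6 Nx-HPi-Lp replicate 1 there were 19, and without 5/6 Nx-HPi-Lp replicate 3 there were 14. Of the 30 calls, 14 were kept whichever library was left out, among them Rpl7a, Rpl23a, Rpl10, Rpl14 and Rpl31. Rps6 was lost without 2 of the 8 libraries (highest adjusted p 0.0518) and Rpsa without 5 of the 8 (highest adjusted p 0.0854). Rpl5 and Rps26 were each lost without 7 of the 8 (highest adjusted p 0.114 and 0.116). With scaling to total counts alone, which moved the median of all genes by -0.14, 40 RP genes fell and 0 rose, and the RP median stayed 0.21 below that of all genes.

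**Figure D2:**
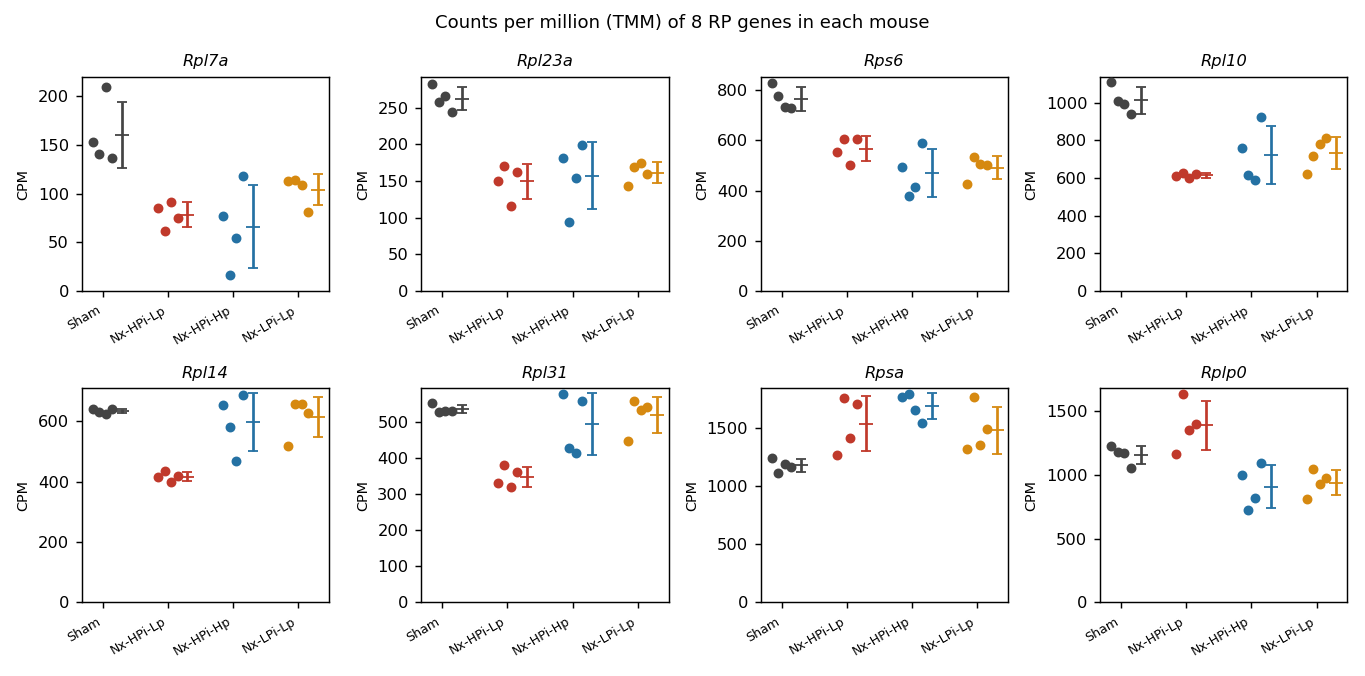
CPM after TMM scaling (vertical axis) of Rpl7a, Rpl23a, Rps6, Rpl10, Rpl14, Rpl31, Rpsa and Rplp0 in each mouse, by group. Rpl7a, Rpl23a, Rps6 and Rpl10 lie below Sham in the 5/6 Nx-HPi-Lp aortas, Rpl14 and Rpl31 are lowest in that group, Rpsa is above Sham in all nephrectomized groups, and Rplp0 is highest in the 5/6 Nx-HPi-Lp aortas.

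The 5/6 Nx mice on the other diets were also set against Sham. In 5/6 Nx-HPi-Hp aortas, 17 of 78 RP genes (21.8%) fell and 3 rose, against 13.9% of 15882 genes that fell and 17.5% that rose; the median log2 fold change was -0.26 and 59 of the 78 were below 0. In 5/6 Nx-LPi-Lp aortas, 19 of 78 (24.4%) fell and 2 rose, against 14.5% of 16071 genes that fell and 17.3% that rose; the median was -0.22 and 60 of the 78 were below 0. The medians over all genes tested were 0.02 in both comparisons. No RP gene was a DEG in either comparison, against 12.2% and 10.9% of all genes. The groups did not overlap in all 20 called genes of the first comparison and in 20 of 21 in the second, Rps27a being the exception, beside 81.3% and 84.8% of all genes called. These contrasts use the same 4 Sham libraries as the one above, so their calls are not independent of one another, and values are given side by side.

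Of the 78 genes, 12 (15.4%) were lower in all 3 comparisons with Sham, beside 6.56% of the 15603 genes tested in all 3, among them Rpl7, Rpl23a, Rpl30 and Rpl35a of the large subunit, and Rps3, Rps6, Rps23 and Rps26 of the small subunit. Another 23 were lower in 1 or 2 of them, 4 were higher in at least 1 (Rpl36, Rpl41, Rps15 and Rpsa), and 39 were called in none. Rps6 had 495, 378, 416 and 590 CPM in 5/6 Nx-HPi-Hp aortas and 426, 533, 504 and 501 CPM in 5/6 Nx-LPi-Lp aortas. Every value was under the lowest Sham value of 729 CPM, with log2 fold changes of -0.64 (SE 0.17, adjusted p = 0.0211, edgeR) and -0.55 (SE 0.12, adjusted p = 0.00939).

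Rpl30, a large-subunit protein whose yeast form represses its own splicing, had 342, 260, 284 and 296 CPM in Sham. The 5/6 Nx-HPi-Lp aortas had 148, 234, 143 and 211 CPM, the 5/6 Nx-HPi-Hp aortas 148, 179, 168 and 226 CPM and the 5/6 Nx-LPi-Lp aortas 140, 155, 144 and 185 CPM. No 5/6 Nx mouse reached Sham, and the log2 fold changes were -0.63, -0.65 and -0.83 (adjusted p = 0.0161, 0.0172 and 0.00344). Rpl15, a large-subunit protein, was at 277 to 320 CPM in Sham, 208 to 267 in 5/6 Nx-HPi-Lp, 156 to 200 in 5/6 Nx-HPi-Hp and 157 to 187 in 5/6 Nx-LPi-Lp aortas; it was called in the latter 2 comparisons, at -0.68 and -0.65.

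Rpl7a was uneven among the 5/6 Nx-HPi-Hp aortas, at 76.7, 16.5, 54.0 and 118 CPM. All 4 were under Sham, yet with this spread the log2 fold change of -1.21 (SE 0.44) did not pass (adjusted p = 0.0597, edgeR). With its pseudogene rows added, the fold change was -1.01 and passed (adjusted p = 0.0289). In 5/6 Nx-LPi-Lp aortas Rpl7a had 113, 114, 109 and 81.1 CPM and fell by 0.53 on the log2 scale (adjusted p = 0.0386), a call lost without 5 of the 8 libraries (highest adjusted p 0.0918) and in 1 fit of all 16 libraries (adjusted p = 0.309). Rps27a, a fusion of ubiquitin and a small-subunit protein, had 433, 186, 352 and 313 CPM in Sham and 147, 186, 152 and 169 CPM in 5/6 Nx-LPi-Lp aortas. These groups met at 186 CPM, since Sham replicate 2 lay apart from the other 3 Sham mice, and the log2 fold change was -0.88 (SE 0.23, adjusted p = 0.0167). Rpl36al, the paralog of Rpl36a, had the lowest value against Sham in the LPi-Lp comparison (-1.12, SE 0.53, adjusted p = 0.133) at levels under 1 CPM in all of these 8 mice. Its row is uncertain, since it shared 24.5% of its exonic bases with another annotated gene.

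The 4 genes that rose ranked from 2 to 11 among the 81 RP genes by mean FPKM. Rpsa had 1774, 1798, 1655 and 1549 CPM in 5/6 Nx-HPi-Hp aortas and 1323, 1769, 1357 and 1493 CPM in 5/6 Nx-LPi-Lp aortas, each above the highest Sham mouse at 1247. The log2 fold changes were 0.59 (SE 0.16, adjusted p = 0.0231, edgeR) and 0.43 (SE 0.14, adjusted p = 0.0430). Rps15 had 797 to 899 CPM in Sham and 1340, 1417, 1072 and 1084 CPM in 5/6 Nx-HPi-Hp aortas, and rose by 0.58 (SE 0.17, adjusted p = 0.0297). In 5/6 Nx-LPi-Lp aortas it was at 0.49 (adjusted p = 0.0504), just outside the threshold. Rpl41 rose in 5/6 Nx-HPi-Hp aortas only just within the threshold (0.47, SE 0.16, adjusted p = 0.0491) and Rpl36 in 5/6 Nx-LPi-Lp aortas (0.44, SE 0.15, adjusted p = 0.0455). Rpl36 in 5/6 Nx-HPi-Hp aortas was at 0.49 and Rpl41 in 5/6 Nx-HPi-Lp aortas at 0.42, with adjusted p of 0.0511 and 0.0508.

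Leaving out libraries moved both counts, again without the shares of all genes in these fits. In 5/6 Nx-HPi-Hp aortas 8 RP genes fell without Sham replicate 1 or 2, 11 without Sham replicate 3 or 4 and 31 without 5/6 Nx-HPi-Hp replicate 4. In 5/6 Nx-LPi-Lp aortas 9 fell without Sham replicate 1, 10 without Sham replicate 2 and 30 without 5/6 Nx-LPi-Lp replicate 2. Rpsa lost its call without 5 and 7 of the 8 libraries in these comparisons, Rps15 without 6, Rpl41 without 6 and Rpl36 without 7, whereas Rpl15 kept it in both and Rps6 in 5/6 Nx-LPi-Lp aortas whichever library was left out. Under total-count scaling, which moved the median of all genes by -0.21 and -0.24, the split became 27 lower and 0 higher in 5/6 Nx-HPi-Hp, and 49 lower and 0 higher in 5/6 Nx-LPi-Lp aortas.

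**Figure D3:**
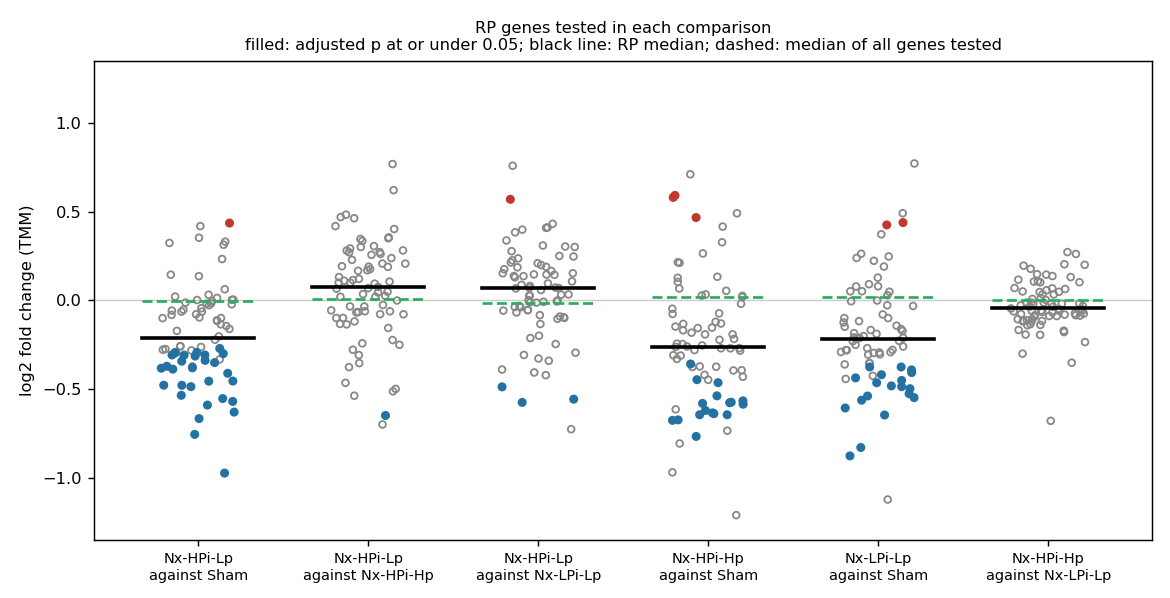
Log2 fold change of each RP gene (vertical axis) in the 6 comparisons of 2 groups; filled points are calls (adjusted p up to 0.05), the black line is the RP median and the green dashed line the median of all genes tested. The RP medians are -0.21, -0.26 and -0.22 against Sham and lie near 0 between the 5/6 Nx groups.

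Between 5/6 Nx groups, where the surgery was the same and the diet differed, the main test called 0 to 4 RP genes in a comparison. In 5/6 Nx-HPi-Lp against 5/6 Nx-HPi-Hp aortas (more protein in the latter), 1 of 77 genes (1.30%) fell and 0 rose, against 5.95% and 7.09% of 16198 genes. An unadjusted p under 0.05 was found for 12 of the 77 RP genes and for 5003 of the 16198 genes, a larger share. DESeq2 called 3 RP genes as higher and 4 as lower, and 1 fit of all 16 libraries called 7 as higher and 5 as lower. The shares of all genes called in these other fits are not given here. In 5/6 Nx-HPi-Lp against 5/6 Nx-LPi-Lp aortas (less phosphorus in the latter), 3 of 77 (3.90%) fell and 1 rose, against 8.96% and 11.1% of 16253 genes. No RP gene was a DEG here, against 8.12% and 11.9% of all genes, and the RP medians were 0.08 and 0.07. In 5/6 Nx-HPi-Hp against 5/6 Nx-LPi-Lp aortas, 0 of 77 RP genes were called by edgeR or by DESeq2 and 0 had an unadjusted p under 0.05; the background was 0.0% of 15850 genes, of which 1420 had an unadjusted p under 0.05. The median there was -0.05, and the values ran from -0.68 in Rpl7a (which varied widely among the 5/6 Nx-HPi-Hp mice) to 0.26 in Rps12 and 0.27 in Rps27a.

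Rpl29, Rpl14 and Rpl31, all of the large subunit, were lowest under the 5/6 Nx-HPi-Lp condition. Rpl29 had 184, 223, 196 and 212 CPM in 5/6 Nx-HPi-Lp aortas, 338, 310, 314 and 318 CPM in 5/6 Nx-HPi-Hp aortas, 267, 300, 288 and 291 CPM in 5/6 Nx-LPi-Lp aortas and 281, 251, 270 and 270 CPM in Sham. The 5/6 Nx-HPi-Lp aortas were below every mouse of the other 3 groups, and the log2 fold changes were -0.65 against 5/6 Nx-HPi-Hp (SE 0.15, adjusted p = 0.0211, edgeR), -0.49 against 5/6 Nx-LPi-Lp (SE 0.12, adjusted p = 0.0249) and -0.34 against Sham (adjusted p = 0.0174). With an offset for GC content, a setting chosen after the data were seen, the first was -0.33 (adjusted p = 0.202) and the second -0.34 (adjusted p = 0.0978); the GC content of the Rpl29 exons was 60.5%.

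Rpl14 had 517, 657, 657 and 627 CPM in 5/6 Nx-LPi-Lp aortas and Rpl31 446, 558, 534 and 540 CPM, close to their Sham levels and above all 5/6 Nx-HPi-Lp aortas. Their log2 fold changes of 5/6 Nx-HPi-Lp against 5/6 Nx-LPi-Lp aortas were -0.56 (SE 0.14, adjusted p = 0.0228, edgeR) and -0.58 (SE 0.14, adjusted p = 0.0206). Rplp0 went the other way, with 1165, 1631, 1355 and 1398 CPM in 5/6 Nx-HPi-Lp, 808, 1045, 928 and 974 CPM in 5/6 Nx-LPi-Lp and 996, 723, 821 and 1090 CPM in 5/6 Nx-HPi-Hp aortas. It was higher than in 5/6 Nx-LPi-Lp aortas by 0.57 (SE 0.17, adjusted p = 0.0424), and at 0.62 against 5/6 Nx-HPi-Hp aortas (SE 0.21, adjusted p = 0.0797). The highest value against 5/6 Nx-LPi-Lp aortas, 0.76 in Rps27a, did not pass (adjusted p = 0.103). None of these 5 calls was kept in every fit with a library left out: each count of lower genes fell to 0 without 5/6 Nx-HPi-Lp replicate 3 or 4, that against 5/6 Nx-HPi-Hp also without 5/6 Nx-HPi-Hp replicate 1 and that against 5/6 Nx-LPi-Lp without 5/6 Nx-LPi-Lp replicate 3, and Rplp0 was lost without 7 of the 8 libraries (highest adjusted p 0.0994).

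**Figure D4:**
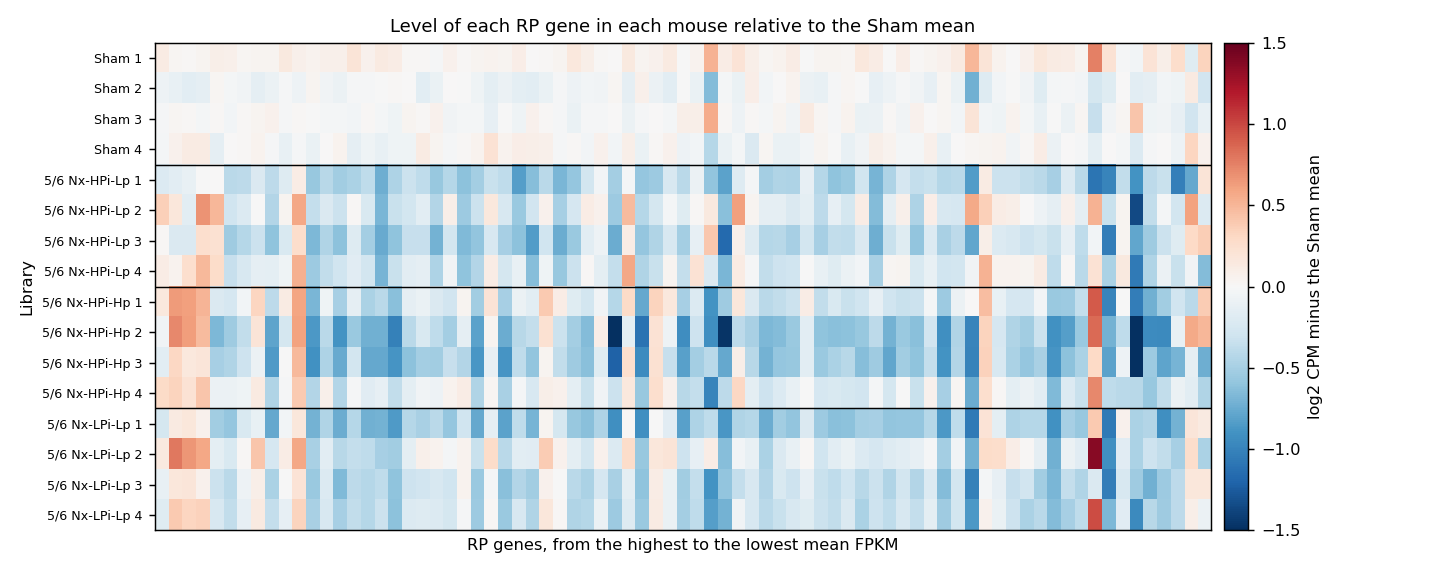
Log2 CPM minus the Sham mean (colour; the scale saturates at its ends) of 77 RP genes with at least 10 counts in every library (columns, by falling FPKM) in the 16 libraries (rows, by group). Sham rows are near 0, with an SD over genes of 0.10 to 0.13 in each mouse, and the 5/6 Nx rows hold both lower and higher genes, with an SD of 0.26 to 0.58.

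The RP mRNAs differed among themselves in how far they moved, though less than genes in general: the SD of their log2 fold changes against Sham was 0.27, 0.37 and 0.32, beside 1.28, 0.81 and 0.78 over all genes tested. In each Sham mouse the median log2 ratio of the 77 genes to the Sham mean lay between -0.05 and 0.07, with an SD over genes of 0.10 to 0.13. The medians in 5/6 Nx-HPi-Lp aortas were -0.41 to -0.14 and the SD 0.26 to 0.35. The medians of the 5/6 Nx-HPi-Hp aortas were -0.51 to -0.15 with an SD of 0.29 to 0.58, and those of the 5/6 Nx-LPi-Lp aortas -0.48 to -0.15 with an SD of 0.27 to 0.37. Sham mice are closer to a mean made from themselves, which narrows their range. Every 5/6 Nx mouse had a wider spread over genes than any Sham mouse.

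The fold changes also varied with GC content. The exons of the 81 genes held 41.3 to 62.4% GC. Spearman's rho between GC content and log2 fold change across the RP genes was 0.19 in 5/6 Nx-HPi-Lp, 0.45 in 5/6 Nx-HPi-Hp and 0.37 in 5/6 Nx-LPi-Lp aortas against Sham, beside 0.02, 0.27 and 0.16 across all genes tested. Genes from the same libraries are not independent, and no test was made. Of the RP genes below the median GC content, 18, 14 and 15 fell in the 3 comparisons, and of those above it 11, 3 and 4. With the GC offset, 31, 17 and 25 RP genes fell, and the shares of all genes that fell in those fits are not given here. The TOP tract divided the genes less: the medians against Sham were -0.16, -0.26 and -0.23 in the 27 genes with a tract within 5 bases of the annotated start and -0.26, -0.31 and -0.23 in the 31 tested genes without one.

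Several RP genes have a paralog, and in the aorta 1 member of each pair carried nearly all counts. Rps27 and Rps27l were the exception: Rps27 had 343 to 360 CPM in Sham and Rps27l 53.5 to 55.8. Rps27 fell in 5/6 Nx-HPi-Lp aortas to 210 to 276 CPM (log2 fold change -0.48, SE 0.11, adjusted p = 0.00542, edgeR), while Rps27l, known as a p53 target, had 42.1 to 60.3 CPM, which overlapped Sham (log2 fold change 0.03, adjusted p = 0.847). In 5/6 Nx-HPi-Hp aortas Rps27 was at -0.74 (adjusted p = 0.0516) and Rps27l at -0.13. The difference between the paralogs was not tested.

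Rpl39 had 245 to 268 CPM in Sham and its testis paralog Rpl39l 0.175 to 0.435. Rpl39 was at -0.16, -0.43 and -0.30 against Sham and passed in none of the 3 comparisons. Rpl36a had 195 to 211 CPM in Sham, with -0.10, -0.28 and -0.19 in the 5/6 Nx groups, and none passed. Its paralog Rpl36al had 190 counts over the 16 libraries. It shared 24.5% of its exonic bases with another annotated gene that had 0 counts, so its level is uncertain. Rpl10l, the testis paralog of Rpl10, had 1 count in Sham replicate 2, 0.0437 CPM, and was listed at 0 in the other 15 libraries.

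Rpl3l is the paralog of Rpl3 that striated muscle uses. Rpl3 was even, at 584 to 728 CPM in Sham and 485 to 696 CPM in the 5/6 Nx mice, and was called in no comparison. Rpl3l had 0 to 1.48 CPM in 15 libraries and 51.0 CPM in 5/6 Nx-LPi-Lp replicate 2. The heart markers Myh6 and Tnnt2 were at 3553 and 1746 CPM in that same library. Its 4 skeletal muscle markers summed to 380 CPM, the highest sum of the 16 libraries, with Ckm at 213, Acta1 at 157, Tnnt3 at 9.98 and Myh4 at 0. The part of muscle tissue in this value was not tested. Rpl3l did not pass the count filter of the main test in any comparison. Fits with no count filter do hold it, and 813 of its 893 counts came from 5/6 Nx-LPi-Lp replicate 2.

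Rows of pseudogenes carry the names of RP genes and hold nearly the same sequence. There were 297 such rows, 295 of them with the name of one of the 81 genes, and 85 of the 297 had no count. The 297 rows held 0.18% of the counts in Sham and 0.16% in 5/6 Nx-HPi-Lp, 0.14% in 5/6 Nx-HPi-Hp and 0.14% in 5/6 Nx-LPi-Lp aortas. For 11 RP genes the pseudogene rows held over 10% of the sum of gene and pseudogenes: 97.3% for Rps10, 65.3% for Rpl17, 34.4% for Rpl21, 23.4% for Rps12, 23.1% for Rpl7a and 11.5 to 16.7% for Rpl23a, Rpl14, Rpl38, Rpl9, Rps16 and Rpl3. Values of these 11 genes are uncertain, since reads of the gene and of a copy may not be told apart.

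Rpl17, a large-subunit protein at the exit of the nascent chain, varied in how its counts fell on the rows. In Sham its own row had 287, 127, 293 and 148 CPM and its pseudogene rows 294, 422, 292 and 409 CPM. In Sham, where one was high the other was low, and the coefficient of variation was 41.4% for the gene and 3.08% for the sum. In the other groups that of the sum was 10.6% under 5/6 Nx-HPi-Lp, 7.54% under 5/6 Nx-HPi-Hp and 16.8% under 5/6 Nx-LPi-Lp, where replicate 2 had the highest value of its group on both, 215 and 326 CPM. In the sum Rpl17 fell in 5/6 Nx-HPi-Hp aortas by 0.43 on the log2 scale (adjusted p = 0.0381, edgeR) and was 0.61 higher in 5/6 Nx-HPi-Lp than in 5/6 Nx-HPi-Hp aortas (adjusted p = 0.0393), whereas its own row passed in neither (adjusted p = 0.0567 and 0.0580). Rps10, a small-subunit protein, had 2.25 to 5.31 CPM on its own row and 100 to 172 on its pseudogene rows. Its sum fell by 0.26 in 5/6 Nx-HPi-Lp and by 0.39 in 5/6 Nx-HPi-Hp aortas against Sham (adjusted p = 0.0475 and 0.0411), and its own row was at 0.01 and 0.07. Rpl21, a large-subunit protein, had 299, 148, 139 and 161 CPM in Sham and 233, 457, 152 and 349 CPM in 5/6 Nx-LPi-Lp aortas, which overlapped, so that its high log2 fold change of 0.77 (SE 0.35) did not pass (adjusted p = 0.120). Its values of 0.71 in 5/6 Nx-HPi-Hp against Sham, and of -0.70 and -0.73 in 5/6 Nx-HPi-Lp against 5/6 Nx-HPi-Hp and against 5/6 Nx-LPi-Lp, did not pass either (adjusted p = 0.0580, 0.150 and 0.214). Adding pseudogene rows was chosen after the data were seen.

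**Figure D5:**
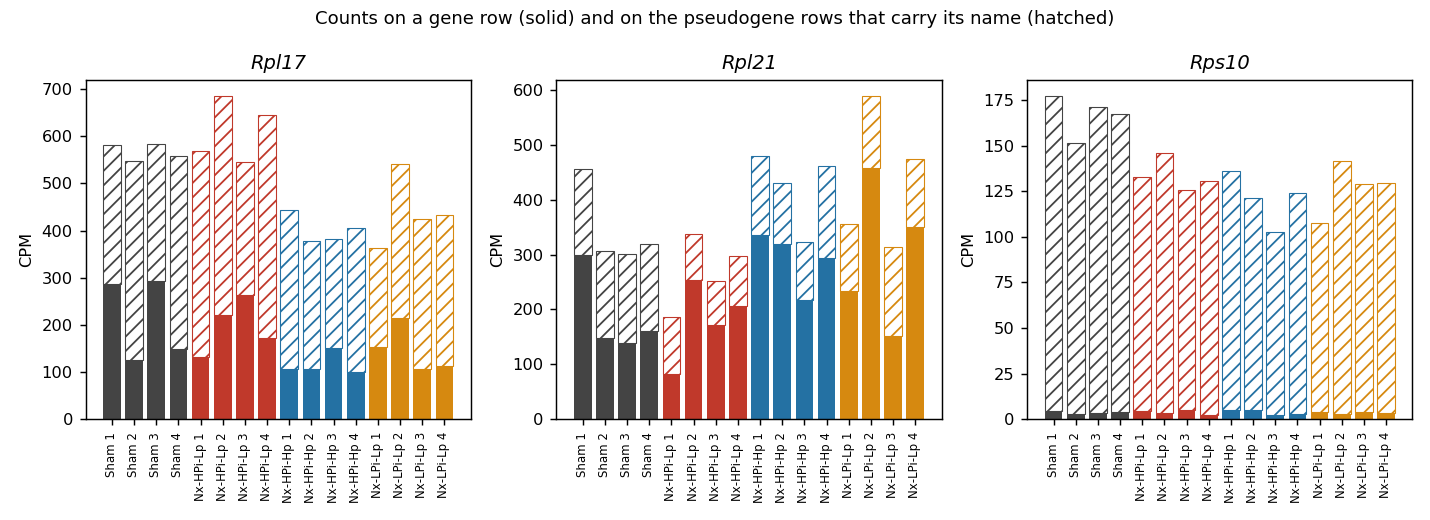
CPM (vertical axis) on the gene row and on the pseudogene rows of Rpl17, Rpl21 and Rps10, stacked, in each of the 16 libraries. For Rpl17 the gene row varies between the Sham mice (127 to 293 CPM) while the stacked height stays at 549 to 585 CPM, and for Rps10 nearly all of the height is on pseudogene rows.

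Genes around the RP set were read from lists of the translation machinery. Of 7 ribosome genes that the name rule leaves out, 1 rose and 1 fell in 5/6 Nx-HPi-Lp aortas against Sham, 1 rose and 4 fell in 5/6 Nx-HPi-Hp, and 1 rose and 3 fell in 5/6 Nx-LPi-Lp aortas. Beside them, 22.7, 17.5 and 17.3% of all genes rose and 20.2, 13.9 and 14.5% fell. Rps3a1, the mouse gene for a small-subunit protein, was at -0.33, -0.92 and -0.83 (adjusted p = 0.0494, 0.00956 and 0.00374, edgeR). Rpl22l1, the paralog of Rpl22, was 0.53 higher in 5/6 Nx-HPi-Lp than in 5/6 Nx-LPi-Lp aortas. No gene of this list was called in 5/6 Nx-HPi-Lp against 5/6 Nx-HPi-Hp aortas, where 7.09% of all genes were higher and 5.95% lower.

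Translation factors and other genes with TOP mRNAs (24 tested) were read beside the RP genes. Against Sham, 2 rose and 7 fell in 5/6 Nx-HPi-Lp aortas, 1 rose and 14 fell in 5/6 Nx-HPi-Hp and 1 rose and 14 fell in 5/6 Nx-LPi-Lp aortas, with medians of -0.16, -0.55 and -0.35. Of all genes, 22.7, 17.5 and 17.3% rose and 20.2, 13.9 and 14.5% fell in these comparisons. In 5/6 Nx-HPi-Lp aortas 6 were higher and 1 was lower than in 5/6 Nx-HPi-Hp aortas, and again 6 and 1 against 5/6 Nx-LPi-Lp aortas, with medians of 0.31 and 0.30 beside RP medians of 0.08 and 0.07. Of all genes, 7.09% and 11.1% were higher and 5.95% and 8.96% lower in these comparisons. Npm1 (nucleophosmin) was at 157 to 175 CPM in Sham, 126 to 164 in 5/6 Nx-HPi-Lp, 62.8 to 93.6 in 5/6 Nx-HPi-Hp and 81.6 to 108 in 5/6 Nx-LPi-Lp aortas. It fell by 1.01 in 5/6 Nx-HPi-Hp aortas (adjusted p = 0.00887) and was at -0.13 in 5/6 Nx-HPi-Lp aortas (adjusted p = 0.350). Pabpc1, the poly(A)-binding protein, was higher in 5/6 Nx-HPi-Lp aortas by 1.01 against 5/6 Nx-HPi-Hp and 1.13 against 5/6 Nx-LPi-Lp aortas, Pabpc4 rose by 1.14, 1.45 and 0.94 against Sham in the 3 groups, and Eef1d, a subunit of the exchange factor of elongation, fell by 0.77 in 5/6 Nx-HPi-Lp aortas against Sham.

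The mitochondrial ribosomal proteins, which build the separate ribosome of mitochondria, were also read against Sham. Of 77 tested, 14 rose and 1 fell in 5/6 Nx-HPi-Lp, 24 rose and 0 fell in 5/6 Nx-HPi-Hp, and 53 rose and 0 fell in 5/6 Nx-LPi-Lp aortas against Sham, with medians of 0.07, 0.36 and 0.56, beside 22.7, 17.5 and 17.3% of all genes that rose. The 14 are a smaller share than that background. Mrps9 rose by 0.72 in 5/6 Nx-HPi-Lp and by 0.96 in 5/6 Nx-HPi-Hp aortas, and Mrpl12 by 1.17 in 5/6 Nx-LPi-Lp aortas. Against the other diets, 6 were lower in 5/6 Nx-HPi-Lp than in 5/6 Nx-HPi-Hp and 21 lower than in 5/6 Nx-LPi-Lp aortas, and 0 were higher in either. Of all genes, 5.95% and 8.96% were lower in these comparisons. Other short protein-coding genes, under 1000 bases like many RP genes, had medians of 0.13, 0.31 and 0.26 against Sham. Of 40 ribosome biogenesis genes, 6 rose and 2 fell, 6 rose and 5 fell, and 1 rose and 5 fell against Sham in the same order of groups, with medians of 0.10, 0.04 and 0.03. Each of these counts is a smaller share than that of all genes, of which 20.2, 13.9 and 14.5% fell. Of 11 genes of RNA polymerase I, 2 rose and 1 fell, 1 rose and 0 fell, and 3 rose and 1 fell, and of 24 genes of mTOR signaling and TOP mRNA control 5 rose and 6 fell, 6 rose and 3 fell, and 6 rose and 2 fell. Both lists stand beside the same 22.7, 17.5 and 17.3% of all genes that rose and 20.2, 13.9 and 14.5% that fell.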

How the data were processed

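Polyadenylated RNA was sequenced from 1 aorta per library. After read cleaning and alignment by HISAT2 (mm10), the authors counted reads per gene with featureCounts 1.5.0-p3 (version from the submitters' processing notes). The authors deposited these counts without normalization, and FPKM scaled between libraries by DESeq2 size factors. The strand setting and the treatment of reads with several matches are not given in the sources used here. Total counts were 13659525 to 57276915 per library, and counting error limits genes near 1 count. The RP genes, gene lists and tests were chosen with earlier results of these data known.

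The main test on the counts used edgeR 4.0.16 under R 4.3.3 (filterByExpr, TMM, quasi-likelihood test, Benjamini-Hochberg adjustment) in fits of the 8 libraries of each comparison. On simulated data for 5/6 Nx-HPi-Lp against Sham (16710 genes), edgeR called 8 of 100 genes changed 1.5-fold and 79 of 100 changed 4-fold. Far fewer genes were changed there than were called in the real comparison, and they were not RP genes in particular. These shares therefore do not give the power for RP genes. Genes named were those fixed by role (stalk, Rpsa, Rps27a, Rps6, Diamond-Blackfan genes, paralog pairs), the 2 highest and 2 lowest members of each comparison, and for 3 lists the highest and lowest called gene; Rpl10, Rpl14, Rpl15, Rpl30, Rps15, Rpl36 and Rpl41, further called genes and those with close copies were named after their values were seen where the rule did not name them. Rps4l, a pseudogene in this annotation, is no member. Values of some single genes are not reported here. The settings changed in turn were scaling (RLE or total counts), DESeq2 1.42.0, limma 3.58.1 on log2(FPKM + 1) and log2(FPKM + 0.1), the count filter (none, or 10 counts in each library), 1 fit of all 16 libraries, a replicate block, mitochondrially encoded genes left out, protein-coding genes alone, a GC offset, pseudogene rows added and each library left out. Figures were drawn with Python 3.11.15 and matplotlib 3.10.9.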

Additional observations from a re-analysis of the deposited data

Results flagged for a closer look

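In groups of 4 mice, a library was marked where its gap to the nearest other mouse as a part of the group's range exceeded Dixon's critical value for 4 values. This held for 9 of 128 sets of 4 values, made of 31 RP genes and the RP share in each of the 4 groups, and chance marks about 1 in 20. Rpl21 had 299 CPM in Sham replicate 1, against 139 to 161 CPM in the other 3 Sham mice. Rpl31 had 552 CPM in Sham replicate 1, against 528 to 530 CPM in the other Sham mice. Rps4x, the X-linked small-subunit protein, had 498 CPM in 5/6 Nx-LPi-Lp replicate 1, against 609 to 629 CPM in its group. Rpl7a had 81.1 CPM in 5/6 Nx-LPi-Lp replicate 4, against 109 to 114 CPM. Rpl17 had 151 CPM in 5/6 Nx-HPi-Hp replicate 3, against 100 to 107 CPM on its own row. Rpl3l had 51.0 CPM in 5/6 Nx-LPi-Lp replicate 2, the library with the heart markers described above, and 0.809 CPM in Sham replicate 1. Rpl39l had 0.376 CPM in 5/6 Nx-HPi-Hp replicate 1 and Rpl10l 0.0437 CPM in Sham replicate 2, both from few counts.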

How the results depend on the processing

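The RP medians against Sham kept their sign in every setting run. Without 1 library they were -0.27 to -0.16 (5/6 Nx-HPi-Lp), -0.31 to -0.22 (5/6 Nx-HPi-Hp) and -0.30 to -0.18 (5/6 Nx-LPi-Lp), and with scaling to total counts -0.35, -0.46 and -0.46, relative to all-gene shifts of -0.14, -0.21 and -0.24. Calls were less stable. No called gene changed sign, but of 30, 20 and 21 calls against Sham 12, 3 and 6 passed in every setting, and none of the 5 calls between diets did. The causes of the changes below were not tested. The shares of all genes called in these other fits are not given here. A larger or smaller RP count below is therefore no measure of a stronger or weaker RP shift.

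RP genes lower against Sham (29, 17 and 19 in the order HPi-Lp, HPi-Hp, LPi-Lp) became 40, 27 and 49 with total-count scaling and 32 (HPi-Hp) and 33 (LPi-Lp) with DESeq2. With all 16 libraries in 1 fit they became 14 (HPi-Lp) and 27 (HPi-Hp). Without 1 library they were 14 to 29, 8 to 31 and 9 to 30. RP genes higher against Sham (1, 3 and 2) became 0, 0 and 0 with total counts, 3 (HPi-Lp) and 7 (HPi-Hp) with DESeq2, 0, 0 and 1 with no count filter, 3, 5 and 1 with all 16 libraries in 1 fit, 2 and 5 with at least 10 counts per library and 2 and 6 with protein-coding genes alone. They became 2 (HPi-Lp) with RLE and with mitochondrially encoded genes left out, 2, 6 and 1 with limma on log2(FPKM + 0.1), 6 and 1 (HPi-Hp, LPi-Lp) with limma on log2(FPKM + 1), 1 and 1 with the GC offset, and 0 to 4, 0 to 7 and 0 to 4 without 1 library.

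In 5/6 Nx-HPi-Lp against 5/6 Nx-HPi-Hp, the 1 lower gene became 4 with DESeq2, 5 in the fit of all 16 libraries, 0 with no filter and 0 to 1 without 1 library, and the 0 higher genes became 3 with DESeq2, 7 in the fit of all 16, 1 with total counts, 10 counts per library or pseudogene rows added, and 0 to 2 without 1 library. In 5/6 Nx-HPi-Lp against 5/6 Nx-LPi-Lp, the 3 lower genes became 0 to 3 without 1 library, and the 1 higher gene became 2 with total counts, both limma fits, 10 counts per library, mitochondrially encoded genes left out or protein-coding genes alone, 3 with DESeq2, 4 in the fit of all 16, 0 with no filter and 0 to 3 without 1 library.

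The 0 DEGs became 1 against Sham in 5/6 Nx-HPi-Hp with total counts, DESeq2, no filter, all 16 libraries, the block or pseudogene rows added, 1 in 5/6 Nx-HPi-Lp with total counts or no filter, and 2 (total counts) or 1 (no filter, all 16 libraries) in 5/6 Nx-LPi-Lp. Against 5/6 Nx-LPi-Lp there was 1 in 5/6 Nx-HPi-Lp with no filter or all 16 libraries, and 0 to 1 without 1 library against Sham. Between these diets the fit with no filter also tested Rpl3l, which the main filter took out.

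Deviations of same-numbered mice from their group means had correlations from -0.20 to 0.41, with at least 1 under 0.1 in every comparison. The highest was that of replicate 4 in 5/6 Nx-HPi-Hp against 5/6 Nx-LPi-Lp. The labels give these mice a common number and name no batch, and a shared batch was not tested. With a replicate block, 17, 5 and 7 RP genes were lower and 0, 1 and 0 higher against Sham, and 0 and 0 were lower and 0 higher between diets.

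The RP share was 4.65, 4.68, 4.24 and 4.09% with mitochondrially encoded genes left out (Sham, HPi-Lp, HPi-Hp, LPi-Lp), 7.21, 4.44, 4.28 and 4.38% of summed FPKM, and 8.15, 7.18, 6.10 and 6.23% of summed FPKM without those genes. Without 1 library the shares of counts were 4.32 to 4.47, 3.46 to 3.71, 3.22 to 3.59 and 3.20 to 3.55%.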
